A study of Caenorhabditis elegans with 15 samples.

Results

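The genes described here are 37 Caenorhabditis elegans genes that act in the germline: 4 P granule genes, 8 genes of the meiotic chromosome axis and synaptonemal complex, 9 genes of DNA replication and nucleotide supply, 5 cell cycle genes, and 11 oocyte regulators, mostly RNA-binding proteins. The list was drawn up by gene function, by symbol, with earlier results of these data known. Each was read on the probe sets that the array annotation pairs with its symbol, and where a gene had several (11 of the 37), the set with the highest mean log2 signal over the 15 arrays was used. All 37 passed the filter on low signal, as did 10259 of the 17118 genes on the array that have a probe set with a single symbol.

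Total RNA came from whole worms of the wild-type strain N2, grown at 20 °C on NGM agar with OP50 bacteria, exposed throughout life and harvested on day 1 of adulthood. There were 5 groups, each cultivated in triplicate (n = 3 arrays per group). August worms received filtrate of Lake Stößensee sampled in August and October worms filtrate of the same lake sampled in October, both at 200% of the lake sample's original AOBr content. AOBr usually stands for adsorbable organic bromine. Culture worms received filtrate of Microcystis aeruginosa, a cyanobacterium grown in batch culture, at 40% of its original AOBr content. Z-medium worms were the control for the culture, and Water worms the control for the lake samples. Lake water and culture were filtered and lyophilised before use, and how the controls were handled is not stated. Lake samples and culture were therefore given at different relative doses, and a difference between them is not a comparison at matched dose.

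In the adult hermaphrodite gonad, germ cells proliferate at the distal end, enter meiosis, and mature into oocytes that are fertilised by stored sperm. P granules are RNA and protein condensates that mark the germ lineage. Meiotic chromosomes are organised by axis proteins and joined in pairs by the synaptonemal complex, while the growing oocyte is loaded with messenger RNAs whose translation is held back by RNA-binding proteins until maturation or early embryogenesis. A day 1 adult carries a full gonad and, often, embryos in the uterus, so maternal messages of this kind are read from germ cells, oocytes and early embryos together. In whole-worm RNA a smaller number of such cells and less RNA per cell cannot be told apart.

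Signals of the 37 genes lay between 423 (syp-4 on the Z-medium replicate 3 array) and 14571 (cey-2 on the August replicate 3 array), on the linear scale of the deposited table, against a filter level of 57.9. These signals are not compared between genes, because probe sets differ in brightness. Each array had been scaled to the same level, with a trimmed mean of 500.1. Replicate arrays of a group correlated between 0.95 and 0.97 across all probe sets, and the signals of no pair of arrays were identical.

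The fold between the lowest and the highest group mean was 1.03 for glh-1, a DEAD-box helicase of P granules, at the low end, and 1.301 for puf-5, a Pumilio-family repressor of translation in oocytes, at the high end, with a median of 1.13 over the genes. These are folds between means of 3 arrays. Over the 15 arrays the median gene spanned 1.38-fold, against 1.59-fold for all probe sets tested.

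**Figure D1:**
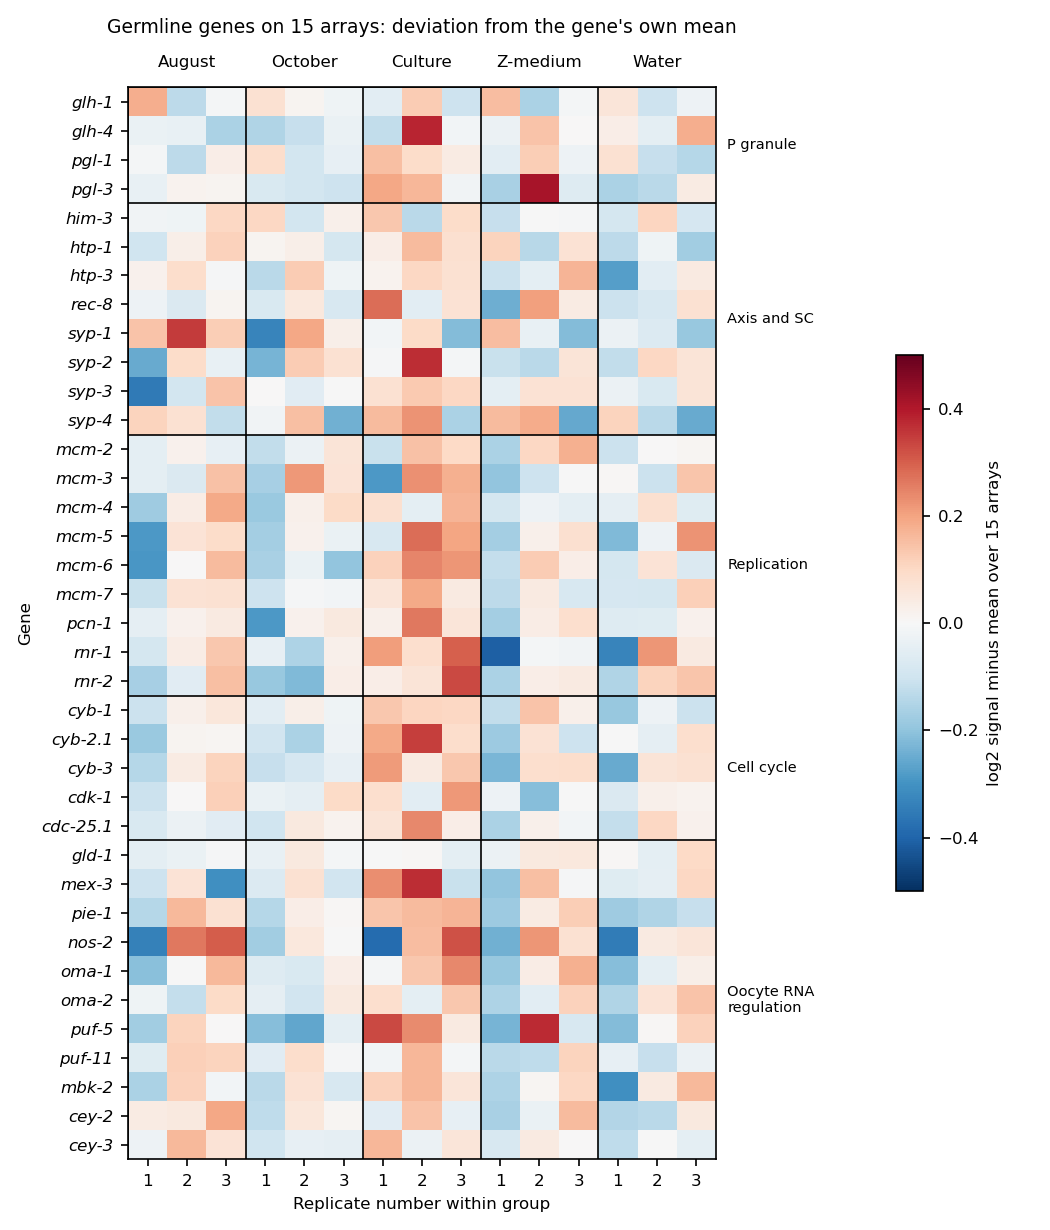
Log2 signal of each of the 37 genes (down the page, by role) on each of the 15 arrays (across, by group and replicate number), as the deviation from the gene's mean over all arrays; SC stands for synaptonemal complex. Red is above and blue below that mean. Replicate 1 columns of August, October, Z-medium and Water are mostly blue in the replication, cell cycle and oocyte blocks, and the Culture columns are mostly red.

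The August comparison asked which transcripts differed in worms raised with the August lake filtrate. By limma on all 13529 probe sets, 0 of the 37 genes passed at an adjusted p under 0.05, where 0.00739% of all probe sets did. At an unadjusted p under 0.05 there was 1 gene, against 3.05% of all probe sets. The median log2 change was 0.03, with 25 of the 37 positive. Over all probe sets the median was -0.01, with 48.5% positive. Without August replicate 3 or without Water replicate 1 that median was slightly below 0 (-0.00236 and -0.00599), so its sign rests on those arrays, and it was 0.09 without August replicate 1 and 0.06 without Water replicate 3. On the probe set used for each gene, every 95% confidence interval stayed within a 1.5-fold change either way. That does not cover the dimmer probe sets, where 1 set of mbk-2 had a log2 change of -0.37 ± 0.19 (SE).

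The gene with the smallest p in August was syp-1, a central-region protein of the synaptonemal complex. Its signal was 1215, 1402 and 1198 on the August arrays, against 1077, 1049 and 965 on the Water arrays. All August values lay above all Water values, which held for no other of the 37 genes in that direction and for 3.33% of all probe sets. The log2 change was 0.30 ± 0.13 (SE) with an adjusted p of 1.00 in limma, and its 95% interval reached 0.58. Its partners in the same structure had other values, with log2 changes of -0.08 for syp-2, -0.09 for syp-3 and 0.11 for syp-4. On the October arrays syp-1 read 875, 1258 and 1123, which spans the Water values.

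The next genes by p in August had overlapping arrays. For pie-1, a zinc-finger protein that keeps germline blastomeres transcriptionally silent, the signal was 1833, 2262 and 2133 in August, against 1790, 1825 and 1869 in Water. cey-2, one of the cold-shock domain RNA-binding proteins of the germline, had 13084, 13175 and 14571 in August, against 11489, 11607 and 13169 in Water. Its relative cey-3 had 9970, 11356 and 10654 in August, against 9285, 10132 and 9828 in Water. htp-1, a HORMA-domain protein of the meiotic axis, had 1781, 1947 and 2065 in August, against 1743, 1880 and 1691 in Water. Log2 changes of these 4 genes lay between 0.12 and 0.18 with standard errors of 0.07 to 0.09, and each adjusted p was 1.00.

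October filtrate was compared with Water in the same way. In limma 0 of the 37 genes passed, as did 0% of all probe sets, and 0 had an unadjusted p under 0.05, against 2.11% of all probe sets. The median log2 change was -0.01, with 17 positive and 20 negative, where 51.1% of all probe sets were positive. With single arrays left out the positive genes numbered between 11 (without Water replicate 1) and 26 (without Water replicate 3), and the median was 0.02 without October replicate 1, Water replicate 2 or Water replicate 3 and -0.04 without October replicate 2 or Water replicate 1. No gene had arrays free of overlap, which 7.56% of probe sets had. On the probe sets used, confidence intervals ran at most down to -0.43 (puf-5) and up to 0.45 (nos-2), all within 1.5-fold. nos-2 encodes a Nanos-family translational repressor of germline precursor cells.

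The smallest p in October belonged to rnr-2, the small subunit of ribonucleotide reductase, which makes deoxynucleotides. It read 6585, 6445 and 7683 in October, against 6767, 8100 and 8257 in Water (log2 change -0.16 ± 0.11, SE). The P granule helicase glh-4 read 875, 897 and 949 in October, against 994, 939 and 1103 in Water (log2 change -0.16 ± 0.11). In both genes a Water array lay below the highest October array. pie-1 read 1835, 2072 and 2034 in October, against 1790, 1825 and 1869 in Water. cyb-2.1, a B-type cyclin, had 4953, 4744 and 5207 in October, against 5291, 5129 and 5612 in Water. Its fellow B-type cyclin cyb-1 had 4000, 4229 and 4084 in October, against 3639, 4080 and 3854 in Water. The changes of pie-1, cyb-2.1 and cyb-1 were 0.11, -0.11 and 0.09 on the log2 scale, each with an adjusted p of 1.00.

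For the M. aeruginosa culture, Z-medium was the control. None of the 37 genes passed (0 of 37 in limma, where 1.54% of all probe sets did), and 2 had an unadjusted p under 0.05, against 15.2% of all probe sets. Most changes were small and of the same sign: 34 of the 37 log2 changes were positive, where 50.8% of all probe sets were, with a median of 0.10 against 0.00 for all probe sets. Genes of this kind sit in the same cells, so their signs are not independent observations. The Culture group had the highest group mean of the 5 for 30 of the 37 genes and the lowest for 0, where each holds for 31.9% of all probe sets.

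By role, the 9 replication genes were all positive, with a median log2 change of 0.15. The 5 cell cycle genes were likewise all positive, with a median of 0.16. Of the 11 oocyte regulators 10 were positive (median 0.10), as were 7 of the 8 axis and synaptonemal complex genes (0.07) and 3 of the 4 P granule genes (0.05). The 3 negative genes were gld-1, a translational repressor needed for oogenesis (-0.04), syp-1 (-0.01) and glh-1 (-0.01). Dimmer probe sets of gld-1 and glh-1 were positive, at 0.10 and 0.04. With the mean of a gene's probe sets, 36 of the 37 genes were positive. Under quantile normalization the P granule median minus that of all probe sets was -0.01, and 8 of the 9 replication genes were positive. Scaling each array to its median moved all probe sets in this comparison by 0.11; that step moves every probe set of an array alike and so leaves the 37 genes where they were relative to the rest. Quantile normalization lowered their median relative to all probe sets to 0.08 (0.10 on the deposited scale).

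Among the 37, cyb-2.1 had the smallest p. Its signal was 6036, 6738 and 5632 on the Culture arrays, against 4665, 5569 and 4932 on the Z-medium arrays. The Culture values lay above every Z-medium value, by a narrow margin between the lowest Culture and the highest Z-medium array, and above every August, October and Water value too. Its log2 change was 0.28 ± 0.09 (SE), with an adjusted p of 0.128 in limma. cyb-2.1 is read by a probe set marked as able to cross-hybridise, and its near-identical copy cyb-2.2, on its own probe set, had a log2 change of 0.31 ± 0.09 (adjusted p = 0.113). Signal of the copies may therefore be mixed.

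The gene with the largest log2 change in the culture was rnr-1, the large subunit of ribonucleotide reductase. It had 4655, 4269 and 4946 in Culture, against 3035, 3992 and 3973 in Z-medium. No values overlapped, and the low Z-medium value was the replicate 1 array. The log2 change was 0.34 ± 0.13 (SE), with an adjusted p of 0.224 in limma. Its interval reached 0.62, or 1.54-fold, the only interval beyond 1.5-fold on the probe sets used for the 37 genes. Dimmer probe sets are not covered by that count, and 1 of oma-2 had a log2 change of 0.34 ± 0.17 (SE). Without the 5 replicate 1 arrays the log2 change of rnr-1 was 0.21.

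Another gene with no overlap was cdc-25.1, a phosphatase that activates Cdk1 in the germline. It had 2456, 2775 and 2402 in Culture, against 2107, 2388 and 2328 in Z-medium. The helicase subunit mcm-7 had 8712, 9523 and 8607 in Culture, against 7636, 8616 and 7908 in Z-medium. For cdk-1, the mitotic kinase itself, the values were 3749, 3407 and 4111 in Culture, against 3473, 3051 and 3535 in Z-medium. The last pair of genes overlapped between the groups. Log2 changes were 0.16 for cdc-25.1, 0.15 for mcm-7 and 0.16 for cdk-1, with adjusted p values of 0.367, 0.378 and 0.390. With pie-1 and the synaptonemal complex gene syp-3, 5 of the 37 genes had all Culture arrays above all Z-medium arrays, which 7.85% of all probe sets had.

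**Figure D2:**
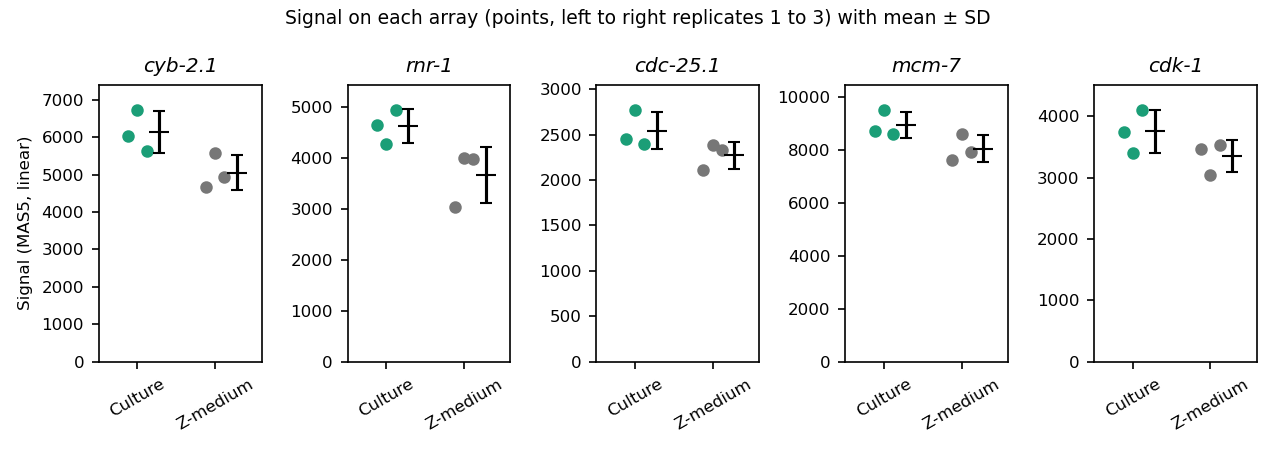
Signal (linear, from 0) of the 5 genes with the smallest p in Culture against Z-medium; points are arrays, and the bar beside them is mean ± SD of 3 arrays. Means are 6135 and 5055 for cyb-2.1, 4623 and 3667 for rnr-1, 2544 and 2274 for cdc-25.1, 8948 and 8053 for mcm-7, and 3756 and 3353 for cdk-1, Culture before Z-medium in each.

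Replicate number was taken as a block in an alternative fit, although for Culture and Z-medium same-numbered arrays did not deviate together in every pair. In that fit 1 gene passed, cyb-2.1 (adjusted p = 0.0428), and rnr-1 did not (adjusted p = 0.0534). The same fit called 9.2% of all probe sets, so 1 of the 37 is no more than that share. Without the Z-medium replicate 1 array the median log2 change of the 37 genes was 0.06 in place of 0.10, with 31 positive.

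Lists of other cell types moved beside these values in the culture. All 12 sperm genes tested had negative changes, with a median of -0.53 and 0 passing, and their summed signal was 27611 to 44365 on the Culture arrays, against 35866 to 46371 on the Z-medium arrays. Summed signals, here and below, are weighted to the brightest probe sets. In the sperm list these were msp-19 and msp-77, with means of 16713 and 12330 on the Culture arrays. Of 10 genes switched on in the zygotic embryo, 8 were positive with a median of 0.49 and 0 passing, and the summed signal was 2518 to 3057 in Culture, against 1976 to 2762 in Z-medium. Larval molting genes fell in 2 of 12 cases (ptr-23 and qua-1), with a median of -0.43 and sums of 2961 to 3142 in Culture, against 3800 to 4699 in Z-medium. Of 11 intestine markers 3 fell (mtl-2 at -0.96, cpr-1 at -0.72 and ifb-2 at -0.56), with a median of -0.14. The 11 had sums of 104540 to 134369 in Culture, against 113952 to 132908 in Z-medium. In the controls, 1 of these 11 was higher past the test in Z-medium than in Water, and the largest log2 change among them was 2.03. Over all 13529 probe sets 161 were lower past the test in Culture. Of 9 body wall muscle markers 1 fell (tni-1, -0.54), 8 were negative and the median was -0.16, with sums of 45490 to 57618 in Culture, against 51820 to 55849 in Z-medium. All 7 adult hypodermis markers were negative, with a median of -0.39 and 0 passing, and sums of 39701 to 57072 in Culture, against 51578 to 55768 in Z-medium. Of 10 somatic gonad markers 8 were positive, with a median of 0.07 and 0 passing. Signals on these arrays do not reach 0 (lowest 0.0335), so a signal above 0 does not show that a marker was detected. The sperm markers spe-9 and spe-38 lay below the filter and were not tested, with spe-38 down to 4.71 in Culture. The part of these cell types in the values of the 37 genes was not tested.

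**Figure D3:**
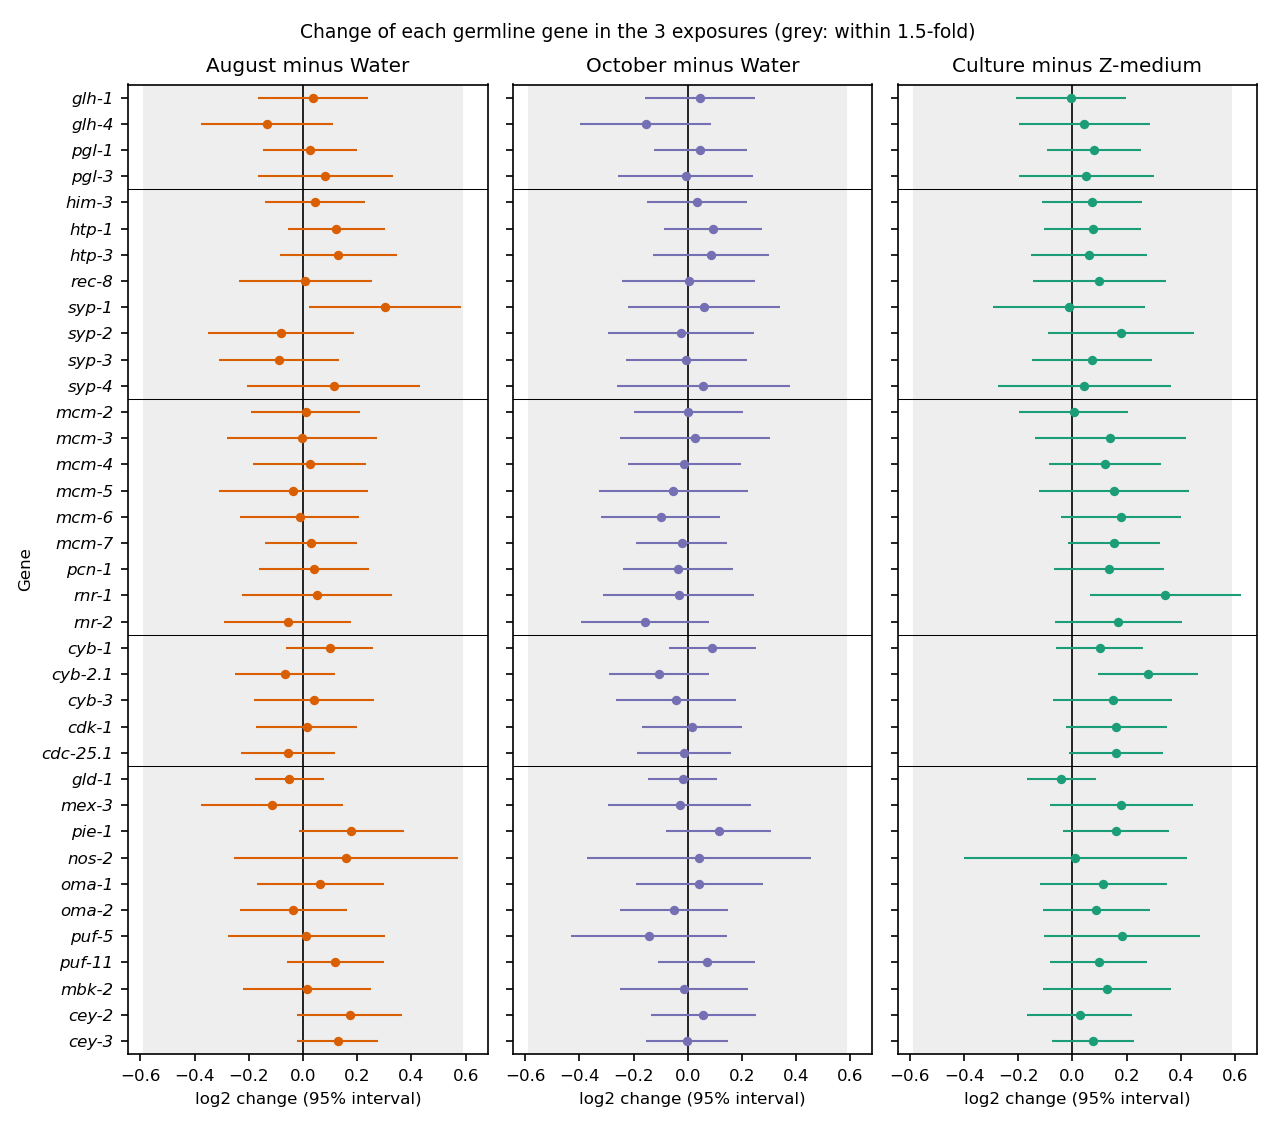
Log2 change of each of the 37 genes (down the page) with its 95% confidence interval in August against Water, October against Water and Culture against Z-medium; the grey band marks changes within 1.5-fold. Points scatter around 0 in the lake comparisons and lie mostly right of 0 in the culture comparison, where only the interval of rnr-1 leaves the band.

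The remaining comparisons called 0 of the 37 genes each. Z-medium against Water, the comparison of the controls, had a background of 0.0222% and a median of 0.02 over the 37 genes (between -0.01 without Z-medium replicate 2 or 3 and 0.07 without Z-medium replicate 1), and 0 had an unadjusted p under 0.05, against 2.34% of all probe sets. October against August had a background of 0.0148%, with 9 positive and 28 negative changes (48% of all probe sets were negative), a median of -0.03 and 0 unadjusted p values under 0.05, against 2.59%. That tally rests on single arrays: 16 were positive without August replicate 3 or October replicate 1, with a median of -0.01 in each case, while the median was -0.10 without August replicate 1 and -0.05 without October replicate 2 or 3. In that comparison cey-3 (-0.13) and pgl-3 (-0.09), which encodes a P granule scaffold protein, had every October array below every August array, against 3.86% of all probe sets.

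The culture effect was set against the mean of the lake effects in a test of the difference itself. It called 0 genes with a background of 0.266%, and 1 had an unadjusted p under 0.05, against 8.54% of all probe sets. The differences had a median of 0.11 with 28 of the 37 positive, against 49.2% of all probe sets. The median was 0.04 without Z-medium replicate 1 (23 positive) and without the 5 replicate 1 arrays (22 positive), 0.06 without Culture replicate 2, and 0.07 without August replicate 1 or Water replicate 3. cyb-2.1 led at 0.37 ± 0.12 (SE, adjusted p = 0.349), followed by rnr-1 at 0.33 ± 0.17 (adjusted p = 0.627). A larger culture effect than lake effect was therefore not detected for any of the 37 genes.

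Other genes of the same processes, 136 in all in 5 lists, were read in the same way, and 127 of them were tested. In August, October and Culture 0 passed, with 3, 3 and 19 at an unadjusted p under 0.05. Over all probe sets that share was 3.05%, 2.11% and 15.2%, and 19 of 127 lies near the last of these. In Culture 106 of the 127 were positive, with a median log2 change of 0.12. The 26 further replication genes had 25 positive changes and a median of 0.16, and the 28 further cell cycle genes 25 positive and 0.17. The 30 further meiosis and recombination genes had 19 positive and 0.07. These lists, like the 37 genes, were drawn up with earlier results known, and their agreement in sign with the 37 is not independent support.

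The comparison by replicate number, which sets 5 arrays against 10, called more probe sets than any exposure. In a fit with the 5 group means and a term for replicate 1, 11 of the 37 genes fell on the replicate 1 arrays relative to replicates 2 and 3, and 0 rose. Over all probe sets 18.1% passed, 7.36% lower and 10.8% higher. At an unadjusted p under 0.05 there were 20 of the 37 genes, against 31.3% of all probe sets. The median log2 difference was -0.11, with 33 negative and 4 positive (glh-1, pgl-1, him-3 and syp-4), where 52.4% of all probe sets were negative. The labels attach no date, batch or handling step to the number, and they do not say that same-numbered cultures were grown together. Over all probe sets tested, replicate 1 arrays deviated together in each pair of groups compared (correlations of 0.36 to 0.56). The fit takes the 5 replicate 1 arrays as independent. If they shared a round of handling, its SE and p values do not measure the spread between rounds.

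The largest difference was that of nos-2. Its signal on the replicate 1 arrays was 1024 in August, 1149 in October, 991 in Culture, 1096 in Z-medium and 1015 in Water. On the replicate 2 and 3 arrays it lay between 1293 and 1613, with a median of 1402. In all 5 groups replicate 1 was the lowest array, and the highest replicate 1 value lay below the lowest of the other 10. The log2 difference was -0.45 ± 0.06 (SE), or 0.73-fold, with an adjusted p of 9.68e-05.

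Of the 9 replication genes 6 fell. mcm-5, a subunit of the MCM2-7 replicative helicase, read 2567 in August, 2782 in October, 2963 in Culture, 2788 in Z-medium and 2687 in Water on replicate 1. The other 10 arrays held 3065 to 3808, with a median of 3299 and again no overlap (log2 difference -0.28 ± 0.05, adjusted p = 9.22e-04). mcm-2, another subunit of that helicase, read 1812, 1720, 1730, 1676 and 1735 on the replicate 1 arrays in the same group order, against 1820 to 2116 on the others, with a median of 1926. It too had no overlap, though the margin was narrow (-0.17 ± 0.05, adjusted p = 0.0235). All replicate 1 arrays lay below all others for these 3 of the 37 genes and for 0.961% of all probe sets.

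For rnr-2 the replicate 1 arrays read 6687, 6585, 7689, 6721 and 6767, against 6445 to 9430 with a median of 7789 on the others (-0.19 ± 0.06, adjusted p = 0.0284). pcn-1, the sliding clamp PCNA, read 5136, 4344, 5388, 4708 and 5070 on replicate 1, against 5078 to 6352 with a median of 5442 (-0.16 ± 0.05, adjusted p = 0.0315). In both genes the ranges overlapped, and pcn-1 was lowest on replicate 1 within each of the 5 groups. mcm-3 read 1928, 1775, 1633, 1740 and 2003, against 1848 to 2337 with a median of 2140 (-0.21 ± 0.07, adjusted p = 0.0447). mcm-6 read 1902, 2078, 2520, 2141 and 2187, against 2028 to 2752 with a median of 2410 (-0.16 ± 0.05, adjusted p = 0.0474). These last calls were the weakest, and they passed in 7 and 6 of the 21 alternative settings. A dimmer probe set of mcm-3, marked as able to cross-hybridise, passed as well (-0.30, adjusted p = 0.0134). The replication genes that did not pass on their brightest probe set were mcm-4 (-0.13), mcm-7 (-0.11) and rnr-1 (-0.20). A dimmer probe set of mcm-7 did pass (-0.18, adjusted p = 0.0150), so its probe sets disagree on the call and not on the sign.

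Of the 11 oocyte regulators 4 fell, nos-2 among them. oma-1, a CCCH zinc-finger protein that acts in oocyte maturation, read 2389, 2639, 2743, 2420 and 2379 on replicate 1, against 2617 to 3264 with a median of 2829 (-0.21 ± 0.05, adjusted p = 0.0106). Its close relative oma-2 had a log2 difference of -0.09, and of -0.23 on a dimmer probe set (adjusted p = 0.109), and did not pass on either. mbk-2, a DYRK-family kinase that marks maternal proteins for removal at the oocyte-to-embryo transition, read 3235, 3290, 3915, 3248 and 2918, against 3422 to 4055 with a median of 3783 (-0.19 ± 0.06, adjusted p = 0.0251). The other 2 probe sets of mbk-2, both dimmer, had differences of 0.04 and 0.03 and did not pass, so its call rests on the brightest set. pie-1 read 1833, 1835, 2227, 1786 and 1790 on replicate 1, against 1825 to 2274 with a median of 2106 (-0.15 ± 0.05, adjusted p = 0.0376), and was lowest on replicate 1 in all 5 groups. On their brightest probe sets the other members of this role did not pass: gld-1, mex-3, oma-2, puf-5, puf-11, cey-2 and cey-3. All were negative there, between -0.15 and -0.03, while a dimmer set of gld-1 had 0.08.

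Among the 8 axis and synaptonemal complex genes only syp-2 fell. It read 1108, 1123, 1314, 1222 and 1212 on replicate 1, against 1201 to 1703 with a median of 1385 (-0.21 ± 0.06, adjusted p = 0.0271). The other synaptonemal complex genes had differences of -0.02 (syp-1), -0.11 (syp-3) and 0.16 (syp-4). The axis genes him-3, htp-1 and htp-3 had 0.00, -0.02 and -0.14, and rec-8, the meiotic cohesin subunit, -0.05. In the cell cycle group 0 of 5 passed on the brightest probe set, and all were negative, from -0.16 for cyb-3 to -0.05 for cdk-1. The brightest set of cyb-1 (-0.10, adjusted p = 0.131) is marked as able to cross-hybridise; of its other sets 1 passed (-0.19, adjusted p = 0.0130) and 1 did not (-0.09). In the P granule group 0 of 4 passed, with 0.13 for glh-1 (-0.04 on its other probe set), -0.09 for glh-4, 0.08 for pgl-1 and -0.07 for pgl-3. Whether the roles differ from each other was not tested.

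**Figure D4:**
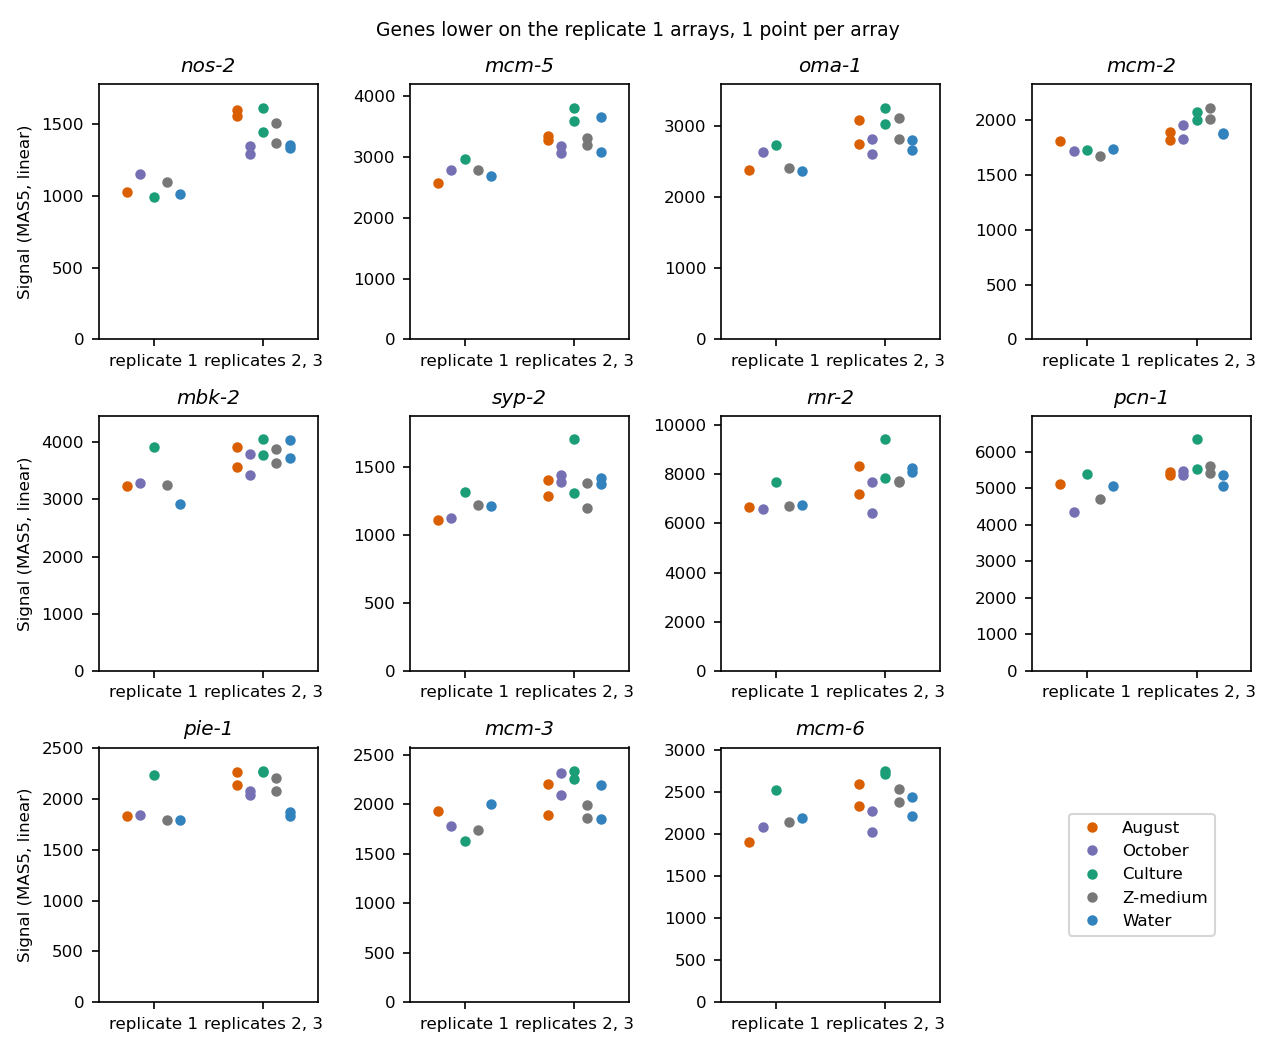
Signal (linear, from 0) of the 11 genes that fell on the replicate 1 arrays, with the 5 replicate 1 arrays left and the 10 arrays of replicates 2 and 3 right; each point is an array, coloured by group. For nos-2, mcm-5 and mcm-2 the sides do not overlap, and for the other 8 they do.

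Within each group, replicate 1 was the lowest array for 26 of the 37 genes in August, 20 in October, 15 in Culture, 31 in Z-medium and 24 in Water. For all probe sets that share was at most 37.9% in any group. The median difference of replicate 1 from the mean of the others was -0.15 in August, -0.06 in October, -0.03 in Culture, -0.17 in Z-medium and -0.10 in Water. A difference of the replicate effect between groups was not tested. Replicate 1 was lowest in all 5 groups for 6 of the 37 genes (nos-2, mcm-5, mcm-2, pcn-1, pie-1 and cey-2) and for 5.13% of all probe sets.

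Further genes of the germline lists mostly had the same sign, with 115 of 127 negative, 25 lower and 0 higher past the test. Over all probe sets 52.4% were negative, and 7.36% were lower and 10.8% higher past the test. In the replication list 8 of 26 fell, among them tyms-1, which encodes thymidylate synthase (-0.33), dut-1, the dUTPase (-0.23), pri-2 of the primase (-0.18) and pold-1 of DNA polymerase delta (-0.22). In the cell cycle list 6 of 28 fell, led by cdc-25.2 (-0.49), mdf-2 of the spindle checkpoint (-0.25), and efl-1 (-0.24) and dpl-1 (-0.21), which encode the E2F and DP transcription factors. In the list of RNA regulators 8 of 26 fell, with lin-41 (-0.28), gld-3 (-0.33), mex-6 (-0.21) and spn-4 (-0.24) first by p. Of the meiosis list 2 of 30 fell, pch-2 (-0.18) and him-1 (-0.24). Of the P granule and small RNA list 1 of 17 fell, meg-1 (-0.20). The counts of these last lists lie near the 7.36% of all probe sets.

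Marker lists of other cells moved with the replicate number. Of 12 sperm genes tested, 10 were higher on replicate 1, with a median log2 difference of 0.67 and a summed signal of 44365 to 50431 on the replicate 1 arrays, against 27611 to 43769 on the others. Of 10 zygotic embryo genes, 6 were lower, with a median of -0.49 and sums of 1976 to 2518 on replicate 1, against 2580 to 3057. Molting genes were higher in 4 and lower in 1 (fbn-1) of 12 cases, with a median of 0.25. Adult hypodermis markers were higher in 3 of 7, body wall muscle markers in 3 of 9 and intestine markers in 3 of 11, with 0 lower in each. Over all probe sets 10.8% were higher and 7.36% lower past the test. Another 7 zygotic embryo genes (end-3, med-1, tbx-37, tbx-38, sdz-23, ceh-51 and tbx-35) lay below the filter and were not tested, with med-1 down to 1.59 in Water. The part of these cells in the differences of the 37 genes was not tested.

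**Figure D5:**
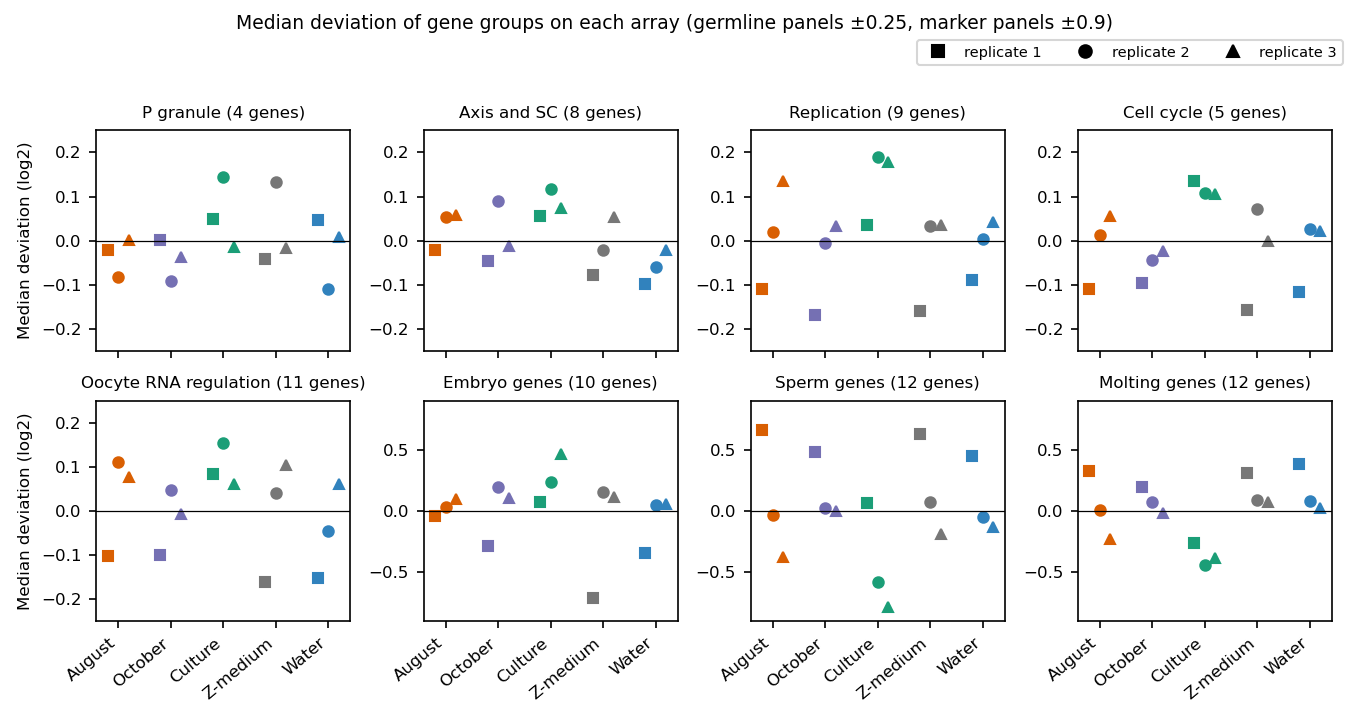
Median deviation from each gene's own mean (log2) of the genes of each role and of 3 marker lists, for every array by group; squares, circles and triangles are replicates 1, 2 and 3. Replicate 1 arrays outside Culture lie below the others of their group in the replication, cell cycle, oocyte RNA and embryo panels and above them in the sperm and molting panels. The Culture replicate 1 array does the same in the replication, embryo, sperm and molting panels, but not in the cell cycle and oocyte RNA panels.

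How firmly the replicate calls stood differed by gene. nos-2 and mcm-5 passed in all 21 alternative settings and oma-1 in 20, while mcm-2 passed in 18, syp-2 and mbk-2 in 17, rnr-2 in 15, pcn-1 in 14 and pie-1 in 12. The number past the test was 3 without the Z-medium replicate 1 array, 5 without the August replicate 1 array, and 7 without October replicate 3, Z-medium replicate 3, Water replicate 1 or Water replicate 3, each left out alone. Without the 3 Culture arrays, a setting chosen after seeing the data, 11 genes were lower and 1 higher, glh-1 (adjusted p = 0.0310), and 8 of the original 11 were among them.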

How the data were processed

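RNA from whole worms was hybridised to single-colour Affymetrix arrays, 1 per culture. The authors deposited a linear signal intensity for each probe set and each of 15 arrays, made with MAS5 in Affymetrix Expression Console 1.2.0.20, per the submitters' processing notes. Detection calls and scans were not used here. No genome build is named, so no coordinates or sequences are given.

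Signals were taken to log2 with no further scaling. Of 22548 probe sets that are not controls, 13529 whose mean log2 signal reached the 40th percentile (5.86) were tested. The test was limma 3.58.1 (R 4.3.3) with trended eBayes and Benjamini-Hochberg adjustment within each comparison. The main comparisons between groups had group means as coefficients and 10 residual degrees of freedom. The replicate 1 term, or the replicate block, was added to the group means and left fewer. The steps were checked on simulated data in which arrays varied independently. That check does not cover arrays that deviate together by replicate number. All 37 symbols matched a current gene symbol. An exact permutation test of 3 against 3 arrays reaches no p under 0.1 and was left out. Errors are standard errors of the model, or SD over 3 arrays; precision is limited by the number of arrays.

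Array values are given for genes past a test, otherwise for the 5 of smallest p; of other lists, up to 4 genes that passed. Members, lists and tests were chosen with earlier results of these data known. Marker lists also covered the somatic gonad, with 1 of 10 genes higher on replicate 1 (tnc-2) and 0 lower. Same-numbered arrays deviated together (correlation over 0.1 in every pair) for August and Water (0.20 to 0.53), Z-medium and Water, and October and August, but not for October and Water (0.06 to 0.47) or Culture and Z-medium (-0.03 to 0.36). Alternatives were quantile or median scaling, no filter, log2(signal + 16), only the groups compared, replicate as a block, no replicate 1 arrays, the mean of a gene's probe sets, and each array left out.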

Additional observations from a re-analysis of the deposited data

How the results depend on the processing

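The count of genes past the test stayed at 0 of 37 under all 14 alternatives for August against Water, October against Water, Z-medium against Water and October against August, and under all 22 for the difference of culture and lake effects. In Culture against Z-medium it was 1 with replicate number as a block (cyb-2.1), where the numbers were not read as pairs and 9.2% of all probe sets passed, against 1.54% without it, and 0 under the other 13. The block, in the comparisons where it was read as a pairing, changed no other call. For replicate 1 against replicates 2 and 3, where 11 genes passed, median scaling gave 20, among them the 11 (27% of all probe sets passed, against 18.1% on the deposited scale, and the median of all shifted by -0.09), and no filter gave 7 (9.6% passed). Leaving out each array in turn gave 3 to 12, and 0 to 0 in every exposure comparison. Quantile normalization gave 11, of which 7 were the same genes, log2(signal + 16) gave 11, and the mean of a gene's probe sets 14. No single-gene change past its test turned its sign. The cause of these differences was not tested. The lowest signal of the 37 genes on any array was 423, against a filter level of 57.9.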
